A study of Homo sapiens with 24 samples.

Results

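Zinc finger genes on chromosome 19 were followed in HCT-116 cells, a human colorectal carcinoma line, treated with butyrate with and without induction of a dominant negative Tcf4. The members were the array probes for genes named ZNF and a number that lie on chromosome 19. There were 338 such probes for 243 gene names, and 197 of them, for 151 genes, were kept because at least 1 treatment had them well above background on each of its 6 arrays. The same filter left 18984 of the 34127 probes of the array, and these form the background for every count below. Of the 151 kept genes, 149 are annotated by RefSeq as protein coding and 2 as transcribed pseudogenes, listed on the array as ZNF137 and ZNF833 and now called ZNF137P and ZNF833P.

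All cells came from 1 stable clone, Clone 19, that carries the Tet repressor and a doxycycline-inducible DN-Tcf4 construct, so the controls carry both as well. Without a beta-catenin binding domain, this Tcf4 occupies Wnt target genes and cannot activate them. The 4 treatments were no agent (Ctl), 5 mM butyrate (NaB), 4 µg/ml doxycycline (Doxy) and both agents together (DoxyNaB). Each was done in 6 experiments, on 24 one-colour arrays in all. By the study's methods doxycycline came first, for a time not stated, and the cotreatment with butyrate then lasted 17.5 hr. Butyrate is a fermentation product of dietary fiber and a histone deacetylase inhibitor. A level below is the log2 of the processed signal relative to the 75th percentile of its array, and a change is a difference of such levels between treatments. A probe was called when it changed over 2-fold with an adjusted p under 0.01 in a limma fit over all tested probes. A level depends on the probe, so no test compared levels of different probes. The order of probes by signal served only to pick 1 probe for a gene and to group probes from dim to bright.

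Most zinc finger genes of chromosome 19 arose by tandem duplication and lie in clusters of related copies. Many encode KRAB zinc finger proteins, in which an array of fingers reads DNA and the KRAB domain recruits TRIM28, a scaffold for the histone methyltransferase SETDB1, heterochromatin protein 1 and the NuRD histone deacetylase complex. These proteins are best known for silencing retrotransposons. Clusters of these genes are themselves known to be covered by heterochromatin marks in many cell types, and ZNF274, a member on this chromosome, is known to bring SETDB1 to the ends of zinc finger genes.

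The copies resemble each other, so the letters of the probes show what each value was read from. The probes of ZNF701, ZNF320 and ZNF160 are shown because they stand in a long stretch of neighboring genes that rose in NaB/Ctl, those of ZNF461 and ZNF333 for their large rises elsewhere, and those of ZNF91, ZNF296 and ZNF444 as contrasts. Positions are those of the files (NCBI36/hg18), and capitals mark the longest run of letters shared with the most similar kept probe of another gene.
ZNF701, chr19:57771026-57771085, plus strand: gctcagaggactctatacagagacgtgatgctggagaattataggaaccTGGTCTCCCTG
ZNF320, chr19:58074581-58074640, minus strand: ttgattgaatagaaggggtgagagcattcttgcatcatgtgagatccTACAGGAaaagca
ZNF160, chr19:58261713-58261772, minus strand: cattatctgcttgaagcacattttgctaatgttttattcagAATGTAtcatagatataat
ZNF461, chr19:41821527-41821586, minus strand: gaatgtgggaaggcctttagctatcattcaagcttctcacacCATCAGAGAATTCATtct
ZNF333, chr19:14692167-14692226, plus strand: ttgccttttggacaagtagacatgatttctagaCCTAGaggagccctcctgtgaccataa
ZNF91, chr19:23332521-23332580, minus strand: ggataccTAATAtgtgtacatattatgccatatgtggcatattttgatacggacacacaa
ZNF296, chr19:50267369-50267428, minus strand: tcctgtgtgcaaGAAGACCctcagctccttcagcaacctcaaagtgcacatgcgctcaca
ZNF444, chr19:61364014-61364073, plus strand: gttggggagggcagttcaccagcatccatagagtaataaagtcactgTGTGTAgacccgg
In a gapless alignment the ZNF461 probe matched a ZNF565 probe at 40 of 60 bases and the ZNF701 probe a ZNF257 probe at 39, while the other 6 probes matched their closest neighbor at 26 to 30 bases. Over all kept probes the most matching bases with another gene ranged from 24 to 51, with a median of 29, and the highest value belonged to ZNF254 and ZNF675. Within the cluster around ZNF468 it ranged from 25 to 46, with a median of 29.5. Cross-hybridization between copies was not tested.

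Promoters of 135 of the 151 kept genes were present in the RefSeq table used here (GRCh38.p14, 300 bases around the gene start). Those of the clustered genes ZNF845, ZNF765 and ZNF813 are shown because they are near copies, and ZNF91 because it belongs to a cluster with other promoters. Capitals mark a run of 10 letters found in several promoters of the same cluster.
ZNF845, chr19:53333499-53333798, plus strand: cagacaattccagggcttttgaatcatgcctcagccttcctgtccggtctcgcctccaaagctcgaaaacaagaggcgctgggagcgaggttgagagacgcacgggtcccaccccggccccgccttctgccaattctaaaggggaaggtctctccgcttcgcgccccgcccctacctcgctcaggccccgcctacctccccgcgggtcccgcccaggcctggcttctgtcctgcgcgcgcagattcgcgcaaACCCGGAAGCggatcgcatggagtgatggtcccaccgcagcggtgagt
ZNF765, chr19:53394899-53395198, plus strand: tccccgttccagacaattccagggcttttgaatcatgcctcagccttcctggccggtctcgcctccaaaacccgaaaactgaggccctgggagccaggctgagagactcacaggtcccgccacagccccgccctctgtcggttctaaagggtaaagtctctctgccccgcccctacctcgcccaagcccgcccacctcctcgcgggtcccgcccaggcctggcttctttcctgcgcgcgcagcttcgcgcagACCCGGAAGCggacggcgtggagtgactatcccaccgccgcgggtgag
ZNF813, chr19:53467483-53467782, plus strand: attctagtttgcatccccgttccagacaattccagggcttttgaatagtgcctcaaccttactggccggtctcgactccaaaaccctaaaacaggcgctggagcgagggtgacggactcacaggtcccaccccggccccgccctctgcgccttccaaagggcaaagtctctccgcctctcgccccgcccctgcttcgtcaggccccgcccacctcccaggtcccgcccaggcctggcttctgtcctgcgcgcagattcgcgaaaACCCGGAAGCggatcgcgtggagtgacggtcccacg
ZNF91, chr19:23395422-23395721, minus strand: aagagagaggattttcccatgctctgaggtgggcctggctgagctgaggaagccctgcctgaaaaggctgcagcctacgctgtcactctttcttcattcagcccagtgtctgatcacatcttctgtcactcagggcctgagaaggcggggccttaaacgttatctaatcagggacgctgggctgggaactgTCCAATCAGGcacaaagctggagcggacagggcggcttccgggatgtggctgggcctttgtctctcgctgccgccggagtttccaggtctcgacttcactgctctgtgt
In a gapped alignment the promoters of ZNF845 and ZNF765 matched at 86.7% of their 300 bases, and ZNF813 matched each of them at 83.7%. The run ACCCGGAAGC, or its complement GCTTCCGGGT, was found in 9 of 22 promoters of the cluster that holds these genes, in 3 of 113 promoters of other kept genes, and in 156 of 35116 promoters of the table (0.444%). The run TCCAATCAGG, or CCTGATTGGA, was found in 11 of 13 promoters of the ZNF91 cluster, in 11 of 122 promoters of other kept genes, and in 122 promoters of the table (0.347%). Both runs were chosen from these promoters, so the counts are a description and no test. CCGGAA is the core that ETS factors are known to bind and CCAAT the box bound by NF-Y, but binding was not measured.

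Relative to the 75th percentile of each array, butyrate alone raised many of these genes and lowered few, a balance that turned over when arrays were scaled to their median. In NaB/Ctl, 78 of the 197 kept probes (39.6%), for 60 genes, were called higher, against 20.7% of all tested probes. Only 5 (2.54%) were called lower, against 11% of all tested probes. With no fold threshold, 120 had an adjusted p under 0.01 and were higher, against 40% of all tested probes, and 20 were lower, against 28.2%. The median change was 0.76 for the kept probes and 0.17 for all tested probes. Of the 286 tested zinc finger probes on other chromosomes, 17.5% were called higher and 6.99% lower, with a median change of 0.25. The other 1096 tested probes of chromosome 19 had 23.4% called higher and 12.4% called lower, with a median of 0.16. The arrays did not overlap between treatments for 87 kept probes that were higher in NaB (44.2%, against 24.2% of all tested probes) and for 12 that were lower (6.09%, against 18.9%).

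The sign of these counts depended on the scaling. When arrays were scaled to their median, the median change of all tested probes moved to -0.74, and 13 kept probes were called higher and 34 lower, with 6.60% higher and 17.3% lower against 7.32% and 38.7% of all tested probes. Quantile normalization gave 34 higher and 18 lower, and normexp background correction gave 22 higher and 0 lower. Relative to the median of all tested probes, the median change of the kept probes was 0.59 in the percentile scaling, 0.59 in the median scaling, 0.30 with quantile normalization and 0.24 with normexp. The rises below are therefore relative to the 75th percentile of each array. Arrays read whole cultures, so fewer cells that express a gene and less RNA per cell cannot be told apart.

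**Figure D1:**
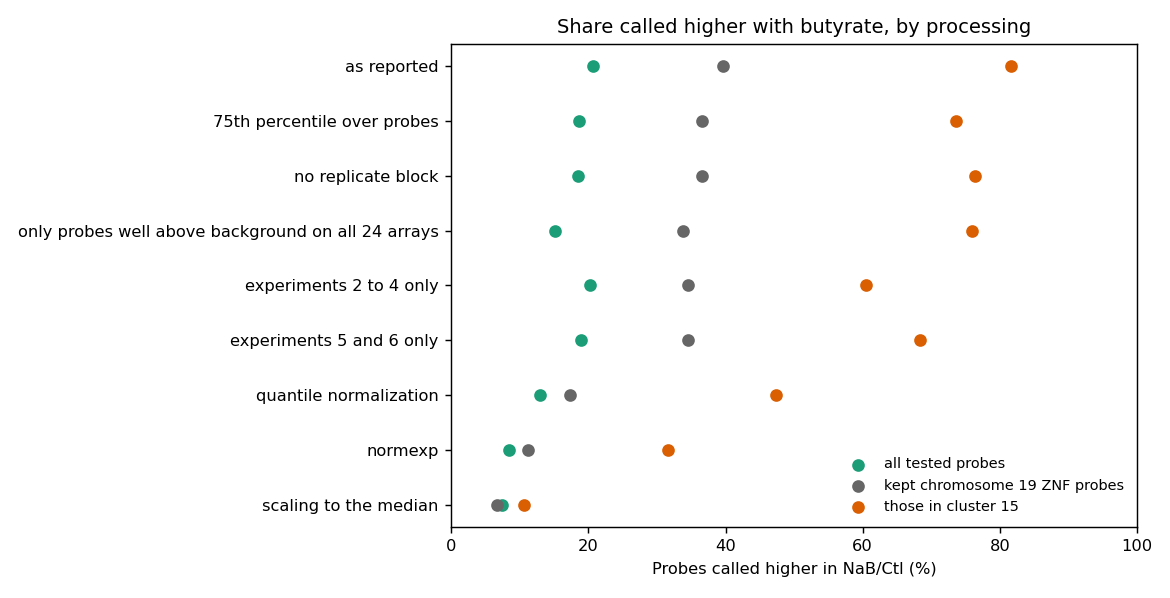
Share of probes called higher in NaB/Ctl (x axis, percent) under each way of processing the arrays (y axis), for all tested probes, the kept chromosome 19 ZNF probes and the probes of the cluster at 56.8 to 58.8 Mb. The kept probes had 39.6% called higher in the percentile scaling and 6.60% when arrays were scaled to their median.

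The filter on background chose the members and so fed into these counts. In 145 of the 197 probes each of the 4 treatments met the threshold on its 6 arrays, and of these 49 were called higher (33.8%) and 5 lower in NaB/Ctl, with a median change of 0.61. The 15080 tested probes kept in the same way had 15.2% called higher and 11.4% lower, with a median of 0.07. Another 12 probes passed through butyrate arrays alone and had to differ, and all 12 were called higher. None of the 9 probes that passed through arrays without butyrate alone was called in NaB/Ctl. The remaining 31 passed in 2 or 3 treatments on both sides, with 17 called higher.

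Among the kept probes, 12 passed in 1 treatment only and so stood just inside the threshold. They belonged to ZNF699, ZNF430, ZNF100, ZNF850P, ZNF573, ZNF221, ZNF541, ZNF808, ZNF765, ZNF805, ZNF550 and ZNF329, with mean levels in Ctl from -6.19 for ZNF541 to -3.84 for ZNF100. Just outside stood 13 of the 141 probes that were not kept, with 5 arrays above background in their best treatment. These were for ZNF493, ZNF507, ZNF599, ZNF792, ZNF780B (both probes), ZNF780A, ZNF45, ZNF223, ZNF615, ZNF460, ZNF154 and ZNF132, and their mean levels in Ctl ran from -5.82 for ZNF615 to -3.97 for ZNF780B. A further 16 probes were above background on no array of any treatment.

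Position along the chromosome divided the members. A gap of over 1 Mb between neighboring probes separated 16 clusters, of which 9 held at least 5 kept probes. The cluster at 56.8 to 58.8 Mb (chr19:56784363-58775279), numbered 15 in order along the chromosome, had 38 kept probes of 26 genes out of 62 probes of 40 genes on the array. Of the 38 probes, 31 (81.6%) were called higher in NaB/Ctl and 0 lower, and 35 were above 0. The 31 probes belonged to 21 genes. The median change was 1.37, with a range from -0.70 to 3.30, and for 27 of the 38 probes every NaB array was above every Ctl array. Outside this cluster, 47 of 159 kept probes (29.6%) were called higher and 5 lower, with a median of 0.54.

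**Figure D2:**
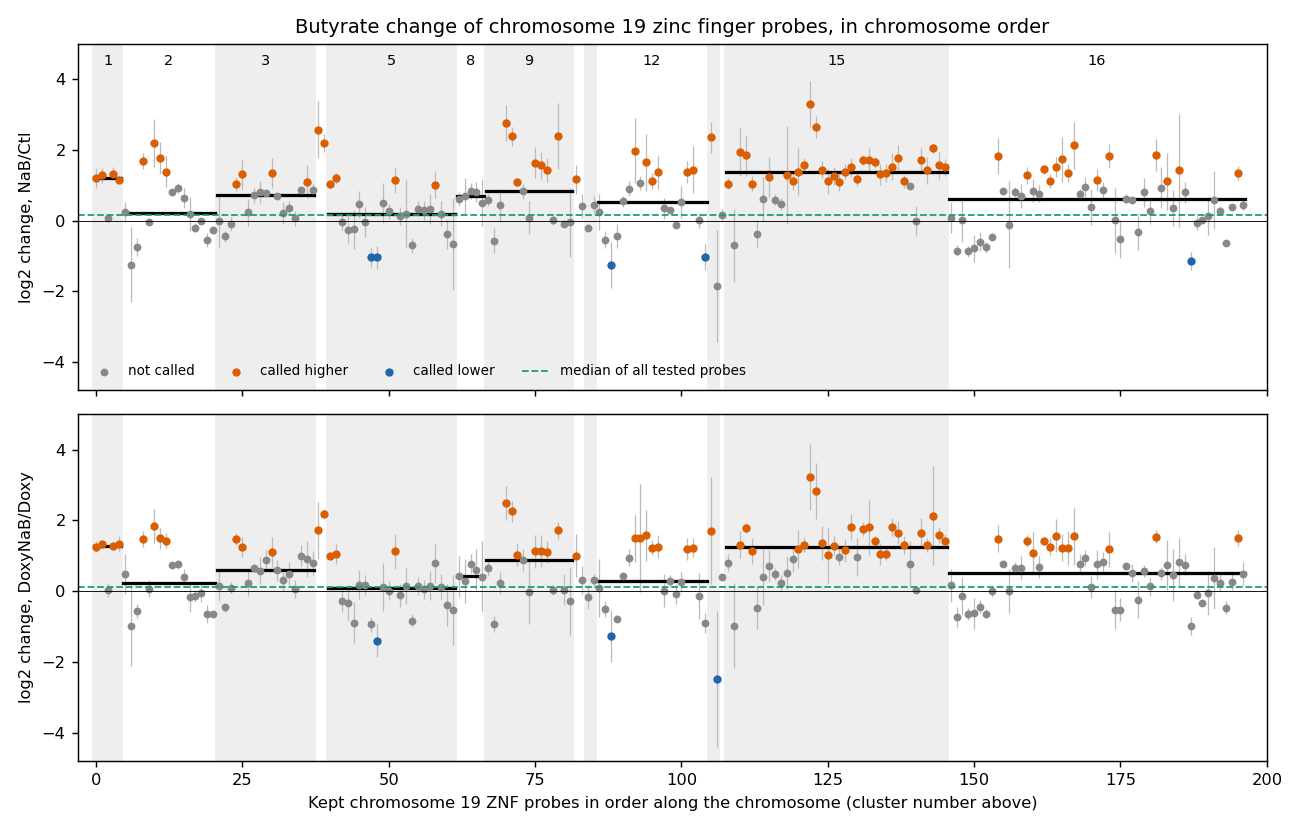
Change of each kept chromosome 19 ZNF probe (y axis, log2, NaB/Ctl above and DoxyNaB/Doxy below) in order along the chromosome (x axis, rank). Points are means and bars the SD over the 6 experiments, shading separates clusters, black lines are cluster medians and the dashed line is the median of all tested probes. Cluster 15 has a median of 1.37 in NaB/Ctl, while the median of all tested probes is 0.17.

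The rise of cluster 15 was found in every experiment. Its median NaB/Ctl change was 1.73, 1.21, 1.25, 1.36, 1.37 and 1.28 in experiments 1 to 6, while that of all tested probes was 0.15, 0.16, 0.22, 0.26, 0.11 and 0.12. Experiment 1, whose butyrate and other arrays were on separate slides so that slide and treatment cannot be told apart there, had the highest value. Among the 25 probes of the cluster that were well above background on every array, 19 were called higher and the median was 1.36. Relative to all tested probes the cluster median was 1.20 in the percentile scaling, 1.09 with quantile normalization and 0.69 with normexp. It was also 1.20 in the median scaling, which follows from the arithmetic, since both scalings shift all probes of an array by 1 value. The median scaling left 4 probes of the cluster called higher and 2 lower.

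Within the cluster, 21 consecutive kept probes for 13 genes, from ZNF480 to ZNF845, were all called higher (chr19:57517864-58549612, 1.03 Mb). Their changes ranged from 1.09 to 3.30, the highest being that of a ZNF701 probe that did not meet the background threshold in Ctl. The ZNF808 probe among them passed the background filter through NaB arrays alone, so the unbroken run follows in part from how probes were kept. The genes in order were ZNF480, ZNF578, ZNF808, ZNF701, ZNF137, ZNF83, ZNF600, ZNF28, ZNF468, ZNF320, ZNF816A, ZNF160 and ZNF845. The 7 probes of the cluster that were not called were for ZNF577, ZNF614 (both probes), ZNF616, ZNF766 and ZNF525 (both probes), and all but those of ZNF525 lay before ZNF480. ZNF577 changed by -0.70 (SD 1.04, n = 6, limma adjusted p = 0.0967), and the ZNF525 probes by 0.98 and -0.01. The genes between zinc finger genes in the same span gave 10 tested probes, of which 4 (40.0%) were called higher and 0 lower, with a median of 0.95.

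ZNF701, ZNF468 and ZNF160 were looked at in each array for this stretch, chosen after their values were seen. For the printed ZNF701 probe the levels (lowest, median, highest) were -1.31, -0.85 and -0.62 in Ctl and 0.52, 0.69 and 0.90 in NaB. No NaB array reached down to any Ctl array, and the change was 1.57 (SD 0.19, n = 6), a 2.97-fold rise with an adjusted p of 1.41e-11 in limma. The other ZNF701 probes changed by 3.30 and 2.66, but were well above background on 3 and 4 of the 6 Ctl arrays. ZNF468 had levels of -0.77, -0.41 and -0.18 in Ctl and of 1.02, 1.28 and 1.46 in NaB. It rose 3.30-fold (1.72, SD 0.13, n = 6, limma adjusted p = 2.9e-13), and its second probe changed by 1.73. ZNF160 had levels of -2.68, -2.27 and -1.97 in Ctl and of -1.10, -0.76 and -0.40 in NaB, and it rose 2.88-fold (1.53, SD 0.39, n = 6, limma adjusted p = 4.42e-09). These 3 probes were higher in NaB in 6 of 6 experiments. ZNF813 and ZNF765 at the end of the cluster, whose promoters are near copies, rose by 1.57 and 1.51 on the log2 scale in probes that start 682 bases apart. This ZNF765 probe lies past both ZNF813 probes along the chromosome. Whether the ZNF813 and ZNF765 probes read separate transcripts was not tested. The gene counts above go by name and include both, although the similar rises may not be those of separate genes. A second ZNF765 probe, 85509 bases away, changed by 1.73, but it passed the background filter through DoxyNaB arrays alone. It was well above background on 4 Ctl arrays, and its change is given as a description.

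**Figure D3:**
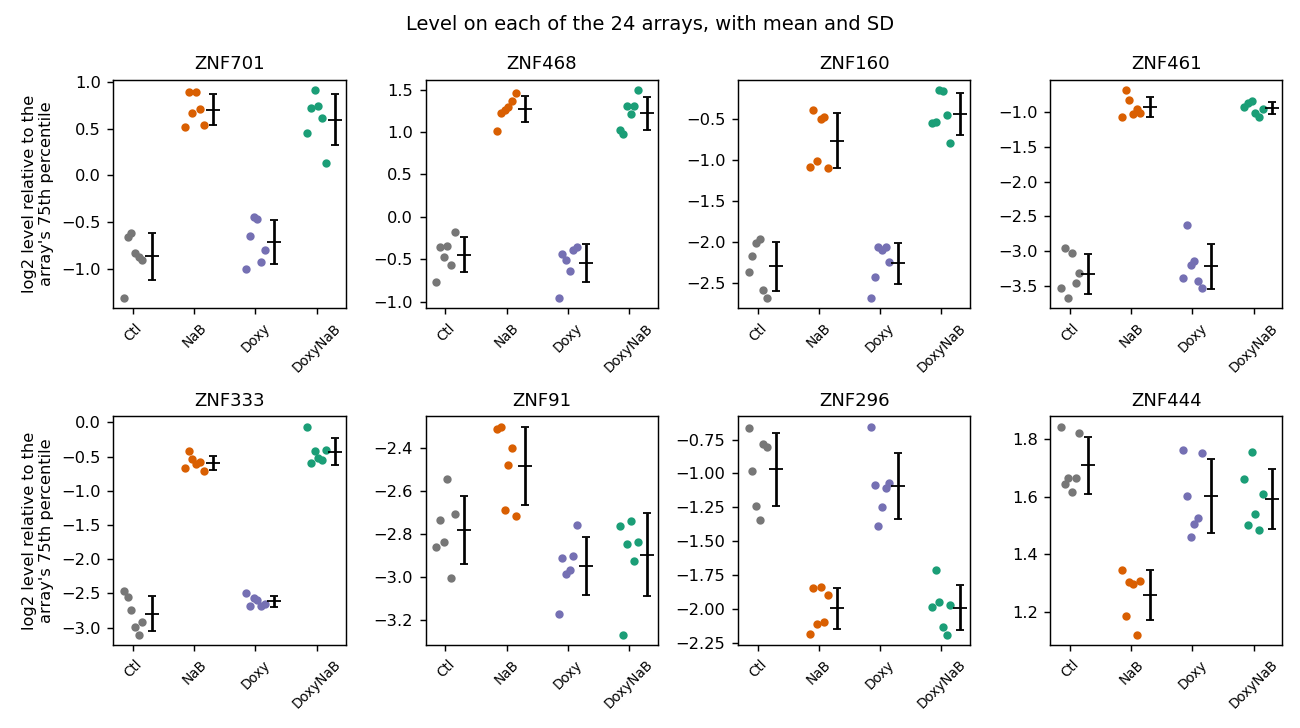
Level (y axis, log2 relative to the 75th percentile of the array) of 8 probes on the 24 arrays, by treatment, with mean and SD over 6 experiments. The NaB and DoxyNaB arrays lie above the Ctl and Doxy arrays for ZNF701, ZNF468, ZNF160, ZNF461 and ZNF333, below them for ZNF296, and overlap them for ZNF91.

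The other 8 described clusters had lower medians in NaB/Ctl, and their shares called higher are read against the 20.7% of all tested probes and those called lower against 11%. Cluster 1 at 2.8 to 2.9 Mb had 5 kept probes of 3 genes, 4 of them called higher, and a median of 1.21. Cluster 9 at 41.4 to 42.9 Mb had 7 of 15 probes called higher and a median of 0.83. Cluster 3 at 11.5 to 12.6 Mb had 4 of 17 called higher (23.5%) and a median of 0.72. The 5 probes of cluster 8 changed by 0.52 to 0.85, all under 2-fold, with a median of 0.70. Cluster 16 at 60.7 to 63.7 Mb, the one with most kept probes, had 14 of 51 called higher (27.5%), 1 lower and a median of 0.61, and cluster 12 at 48.7 to 50.3 Mb had 6 of 19 higher, 2 lower and a median of 0.54. Clusters 2 and 5 were closest to the background, with medians of 0.22 and 0.20. Cluster 5 at 19.7 to 24.1 Mb, which holds ZNF91 and lies by the centromere, had 4 of 22 probes called higher and 2 lower. Of the 9 clusters, cluster 15 had the highest median in NaB/Ctl in the percentile scaling, but over 40 combinations of setting and comparison it was highest in 21 and cluster 1, with its 5 probes, in the other 19.

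**Figure D4:**
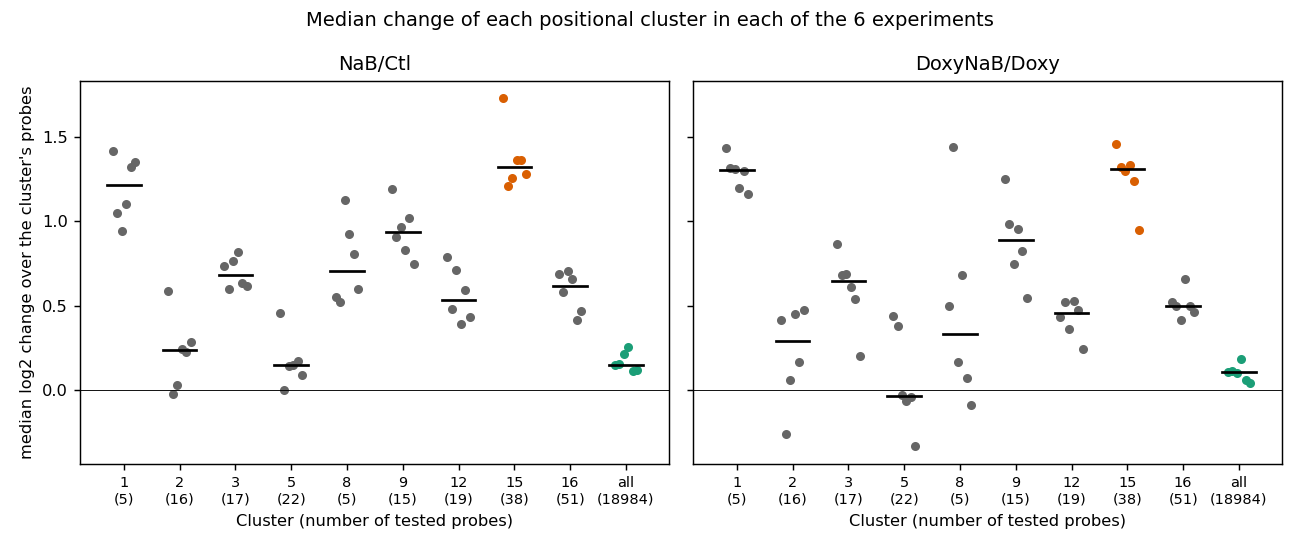
Median log2 change of the kept probes of each described cluster in each of the 6 experiments (points, y axis), for NaB/Ctl and DoxyNaB/Doxy, with a line at the median of the 6 and all tested probes at the right. Cluster 15 lies between 1.21 and 1.73 in NaB/Ctl and between 0.95 and 1.46 in DoxyNaB/Doxy.

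Among the kept genes that were well above background on every Ctl and NaB array, ZNF461 and ZNF333 rose the most. ZNF461, known as a gonadotropin-inducible repressor, had levels (lowest, median, highest) of -3.66, -3.39 and -2.95 in Ctl and of -1.08, -0.99 and -0.69 in NaB. The arrays did not overlap, and the gene rose 5.22-fold (2.38, SD 0.28, n = 6, limma adjusted p = 6.05e-13). ZNF333 had levels of -3.10, -2.83 and -2.46 in Ctl and of -0.71, -0.60 and -0.42 in NaB, and it rose 4.61-fold (2.20, SD 0.25, n = 6, limma adjusted p = 2.23e-13). A second probe of each gene, dimmer, changed by 2.76 and 2.58. The ZNF461 probes lie 37 bases apart and overlap, so they are not separate readings of the gene. The second ZNF333 probe did not meet the background threshold in every treatment. The other large rises were those of ZNF350 (3.60-fold), ZNF211 (3.56-fold), ZNF667 (3.55-fold) and ZNF559 (3.40-fold), each higher in 6 of 6 experiments.

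The gene with the largest called rise was taken from each described cluster that had one. ZNF77 rose 2.51-fold in cluster 1, ZNF44 2.54-fold in cluster 3 and ZNF14 2.29-fold in cluster 5. ZNF527 rose 5.27-fold in cluster 9, from levels of -4.84, -2.98 and -2.62 in Ctl to -1.41, -0.91 and -0.88 in NaB. ZNF613 rose 3.88-fold in cluster 15. ZNF699 in cluster 2 and ZNF221 in cluster 12 passed the background filter through DoxyNaB arrays alone and are given as a description. Their fitted NaB/Ctl changes were 2.20 and 1.98, each was well above background on only 3 of 6 Ctl arrays, and their Ctl and NaB arrays overlapped. ZNF541, a gene outside the described clusters that was chosen after its values were seen, passed through NaB arrays alone, with 0 of 6 Ctl arrays and 6 of 6 NaB arrays well above background, so its higher NaB level follows from how it was kept.

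Genes with a known role did not share a direction. ZNF350, also called ZBRK1, a KRAB repressor that partners BRCA1, rose by 1.85 on the log2 scale (SD 0.59, n = 6, limma adjusted p = 2.17e-09), with 6 of 6 experiments higher. ZNF224, a KRAB repressor of the aldolase A gene, rose by 1.13 (SD 0.24, n = 6, limma adjusted p = 1.64e-08). ZNF274 changed by 0.81 (SD 0.30, n = 6, limma adjusted p = 1.68e-06), under the 2-fold threshold, with levels of -1.86, -1.47 and -1.24 in Ctl and of -1.15, -0.61 and -0.35 in NaB. ZNF91, which silences SVA retrotransposons, had levels of -3.01, -2.79 and -2.54 in Ctl and of -2.72, -2.44 and -2.30 in NaB, and these overlapped (0.30, SD 0.26, n = 6, limma adjusted p = 0.0162). Quantile normalization and median scaling turned the ZNF91 change to -0.82 and -0.61, and median scaling turned that of ZNF274 to -0.10. ZNF146, which consists almost wholly of fingers without a KRAB domain, changed by -0.56 (SD 0.36, n = 6, limma adjusted p = 0.000289), with levels of -0.07, 0.42 and 0.86 in Ctl and of -0.23, -0.16 and 0.02 in NaB. The probes of ZNF93, ZNF331 and ZNF382 were not kept, with at most 2, 3 and 3 arrays above background in a treatment.

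Few genes fell, and most of those that did had another probe that was not called. ZNF296 was the only gene whose probe of highest level was called lower in NaB/Ctl. Its levels were -1.34, -0.89 and -0.67 in Ctl and -2.19, -2.0 and -1.84 in NaB, with no overlap, and it fell by 1.03 on the log2 scale (SD 0.36, n = 6, limma adjusted p = 2.06e-07). Without experiment 1 the change was -0.93 and without experiment 5 it was -0.97, both under the 2-fold threshold. The other 4 called falls, named after their values were seen, were single probes of ZNF428, ZNF544, ZNF714 and ZNF738. ZNF544 changed by -1.14 and -0.06 in its 2 probes, which lie 16428 bases apart on the chromosome, and ZNF714 by -1.04 and -0.03. ZNF738 changed by -1.03 and 0.50, and ZNF428 by -1.25 and -0.43. Of the 43 genes with several kept probes, 17 had every probe called higher, 9 had some called higher, 13 had none called and 4 had a probe called lower, and in 0 genes were probes called in opposite directions. The median range between the probes of a gene was 0.38.

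Most probes that butyrate raised without doxycycline were also called higher with it. In DoxyNaB/Doxy, 69 kept probes (35.0%), for 52 genes, were called higher against 18.3% of all tested probes, and 3 (1.52%) were called lower against 12.3%. With no fold threshold, 112 were higher, against 37.3%, and 22 lower, against 29.7%. The median change was 0.65, and 0.10 for all tested probes. When arrays were scaled to their median, 15 were higher (7.61%, against 8.25% of all tested probes) and 28 lower (14.2%, against 30.8%). The medians were then 0.00 for the kept probes and -0.55 for all tested probes. Treatments did not overlap for 72 probes that were higher in DoxyNaB (36.5%, against 21.6% of all tested probes) and for 17 that were lower (8.63%, against 19.9%). The comparison shares no array with NaB/Ctl, but both come from the same experiments, slides and limma fit and are not independent. Both called 67 probes higher, which is 85.9% of the 78 and 97.1% of the 69. Over all tested probes these shares were 81.9% and 92.5%, so most calls were shared across the array as well. None was called in opposite directions. The 3 lower calls were probes of ZNF428, ZNF738 and ZNF114, the last of which passed the filter through arrays without butyrate alone, with 3 of 6 DoxyNaB arrays well above background, so its lower level there is a description.

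In cluster 15, 25 of 38 probes (65.8%) were called higher under doxycycline and 0 lower, with a median of 1.23 and values of 1.46, 1.32, 1.3, 1.34, 1.24 and 0.95 in experiments 1 to 6. Outside it, 44 of 159 kept probes (27.7%) were called higher. For 1 probe each of ZNF175, ZNF525 and ZNF765 a flagged spot left 5 experiments. The longest run of called probes shortened to 8 probes of 5 genes, from ZNF468 to ZNF845. ZNF701 had levels of -1.0, -0.72 and -0.44 in Doxy and of 0.13, 0.67 and 0.91 in DoxyNaB (1.31, SD 0.22, n = 6, limma adjusted p = 1.56e-10). ZNF468 had levels of -0.96, -0.47 and -0.35 in Doxy and of 0.98, 1.26 and 1.5 in DoxyNaB (1.77, SD 0.20, n = 6, limma adjusted p = 1.94e-13). Neither gene overlapped between these treatments. ZNF461 and ZNF333 rose by 2.26 and 2.19. ZNF296 changed by -0.90 and was not called, while ZNF91 had a change of 0.05 (SD 0.27, n = 6, limma adjusted p = 0.657).

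Doxycycline changed none of these genes past the threshold. In Doxy/Ctl 0 of 197 kept probes were called, against 0.0948% of all tested probes, with changes from -0.56 to 0.79. At an unadjusted p under 0.05 there were 14, against 12.6% of all tested probes, and the methods' t-test called 0. The lowest adjusted p was 0.143, for ZNF101, which changed by -0.18 (SD 0.08, n = 6, limma). In DoxyNaB/NaB 0 were called, against 0.379%, with changes from -0.54 to 0.52, and 18 had an unadjusted p under 0.05, against 15.3% of all tested probes. The methods' t-test called 0 here as well. There were 4 probes with an adjusted p under 0.01 that did not reach 2-fold, against 2.49% of all tested probes, the lowest being that of ZNF562 (-0.35, SD 0.08, n = 6, limma adjusted p = 0.000257).

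The induction itself could be read from a Wnt target. AXIN2, a negative regulator that Wnt signaling induces, changed by -0.58 in Doxy/Ctl (SD 0.15, n = 6, limma adjusted p = 0.0029) and by -2.53 in DoxyNaB/NaB (SD 0.34, n = 6, limma adjusted p = 2.64e-11). A probe of TCF7L2, the Tcf4 gene, changed by -0.17 in Doxy/Ctl (SD 0.99, n = 6, limma adjusted p = 0.921) and by 2.96 in DoxyNaB/NaB (SD 0.88, n = 6, limma adjusted p = 3.65e-05). Whether this probe lies within the part of Tcf4 that the construct keeps was not tested.

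In all, 3 kept probes (1.52%, against 1.24% of all tested probes) passed the interaction test of whether the butyrate change differed between cells without and with doxycycline. ZNF444, a regulator first described in endothelial cells, had levels of 1.62, 1.66 and 1.84 in Ctl and of 1.12, 1.3 and 1.35 in NaB, and these did not overlap. In Doxy and DoxyNaB they were 1.46, 1.57 and 1.76 and 1.48, 1.57 and 1.75, which overlapped. The changes were -0.45 and -0.01, a difference of -0.44 (limma adjusted p = 0.0034). ZNF562 changed by -0.26 without and -0.66 with doxycycline, a difference of 0.40 (limma adjusted p = 0.0035), although its other probe changed by -0.54 and -0.65. ZNF8 changed by 0.02 and -0.33, a difference of 0.35 (limma adjusted p = 0.0052). All 3 differences were under 2-fold, and 0 probes passed when any 1 experiment was left out or without the replicate block.

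The machinery through which KRAB zinc finger proteins act had more genes called lower than higher after butyrate. Of 38 co-repressor genes listed, 37 were tested. In NaB/Ctl 1 was called higher and 12 lower, with a median change of -0.64, where 20.7% of all tested probes were higher and 11% lower with a median of 0.17. In DoxyNaB/Doxy 1 was higher and 10 lower, with a median of -0.68, where all tested probes had 18.3%, 12.3% and 0.10. The list was chosen with results of these data known. Many of its probes were bright, with mean levels in Ctl from -1.81 for DNMT3A to 4.73 for CBX3. In the brightest of 5 equal groups of all tested probes by mean signal, 6.53% were higher and 12.8% lower in NaB/Ctl, with a median of -0.17. In DoxyNaB/Doxy these values were 6.77%, 12.9% and -0.16. The list was not compared with probes of like signal. Scaling to the median gave 0 higher and 29 lower in NaB/Ctl, normexp 1 and 9, and quantile normalization 1 and 13. ATF7IP2, a relative of the SETDB1 cofactor ATF7IP, rose by 1.85 (SD 0.11, n = 6, limma adjusted p = 1.05e-13). The genes that fell included UHRF1, the partner of DNA methyltransferase 1 (-2.15), DNMT1 itself (-1.27), the NuRD subunits MTA3 (-1.84), MTA1 (-1.74), RBBP4 (-1.32), MTA2 (-1.20) and CHD3 (-1.17), the H3K9 methyltransferases SUV39H1 (-1.52), SUV39H2 (-1.24) and EHMT1 (-1.11), and the heterochromatin proteins CBX3 (-1.13) and CBX5 (-1.03). DNMT3B fell in DoxyNaB/Doxy by 1.77 on the log2 scale. TRIM28 changed by -0.59 (SD 0.06, n = 6, limma adjusted p = 5.77e-06), being lower in 6 of 6 experiments, and SETDB1 by -0.51 (SD 0.07, n = 6, limma adjusted p = 3.08e-05). Both were under the 2-fold threshold, as were changes the other way in TRIM24 (0.90), MPHOSPH8 (0.69), PPHLN1 (0.51) and MORC2 (0.27), each higher in 6 of 6 experiments. In Doxy/Ctl, DoxyNaB/NaB and the interaction 0 of the 37 were called.

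Signal level moved with the calls. Over 5 equal groups of all tested probes from dimmest to brightest, the share called higher in NaB/Ctl was 41.4%, 25.9%, 17.1%, 12.6% and 6.53%. In the kept ZNF probes it was 46.7% of 45, 49.4% of 77, 31.8% of 44, 20.8% of 24 and 0% of 7. The members were thus close to the background in the dimmest group, where other chromosome 19 probes had 48%, and above it in the next 3. Cluster 15 had 8 of 10, 14 of 16, 5 of 6, 4 of 5 and 0 of 1 probes called higher in the same groups, and the other kept probes 13 of 35, 24 of 61, 9 of 38, 1 of 19 and 0 of 6. In the brightest but one of these groups the members outside the cluster were below the background, with 5.26% against 12.6%.

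**Figure D5:**
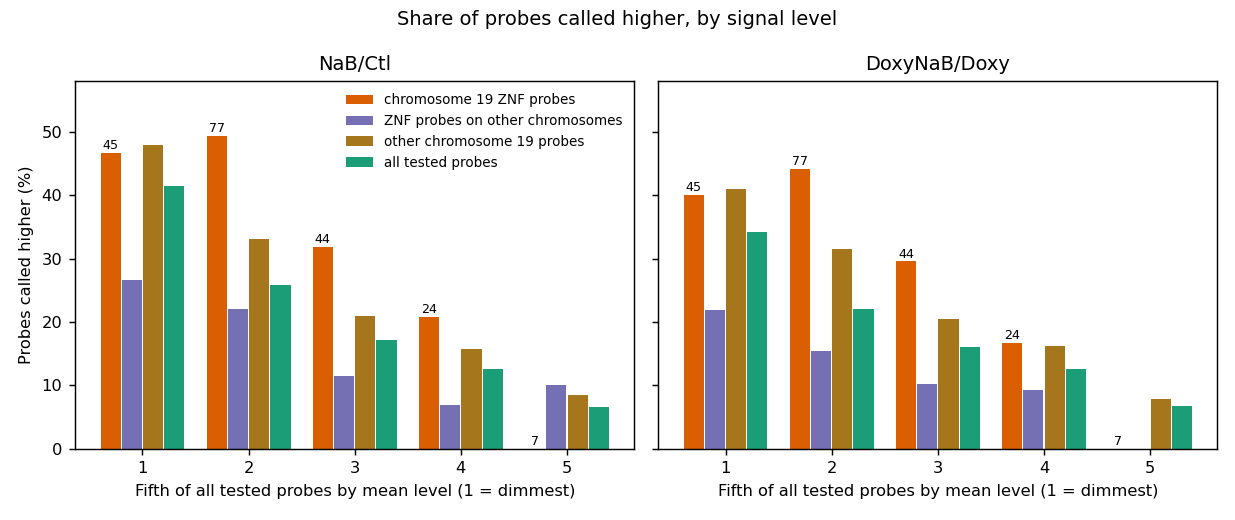
Share of probes called higher in NaB/Ctl (left) and DoxyNaB/Doxy (right; y axis, percent) in 5 equal groups of all tested probes by mean signal (x axis), for 4 sets of probes, with the number of chromosome 19 ZNF probes above the bars. In NaB/Ctl the ZNF share is 49.4% in the second dimmest group, where all tested probes have 25.9%.

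Negative control spots also moved with butyrate. Their mean net signal was 48.4 to 76.9 in Ctl and 49.5 to 79.6 in Doxy, and 48.8 to 161.0 in NaB and 51.2 to 248.9 in DoxyNaB. In experiments 5 and 6 alone, where they were 48.4 to 53.8 on every array, 68 of 197 kept probes (34.5%) were called higher and 4 lower in NaB/Ctl, against 18.8% of all tested probes called higher. Cluster 15 then had 26 of 38 called higher and 1 lower.

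Short motifs were counted in the promoters of genes with and without a call. GGGCGG, searched on both strands, was found in 59.6% of 52 promoters of genes with a probe called higher in NaB/Ctl, in 67.5% of 83 others and in 45% of all promoters of the table. CCAAT was found in 31.8% of the promoters of cluster 15, in 13 of 13 of cluster 5, in 53.3% of all kept genes and in 34.6% of the table. CTTTGA, the core of the Tcf binding site, was found in 13 of 52 promoters of genes called higher (25.0%), in 6 of 83 others (7.23%) and in 12.9% of the table. These are matches of letters with no test. Pairs of promoters within cluster 15 were identical at a median of 61.7% of aligned positions, close to the 60.3% of pairs between clusters 15 and 5, while pairs within cluster 5 had a median of 76.8%.

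Array quality and cell identity were as follows. Between 52.5% and 88.1% of spots were well above background per array, 0 to 3 spots were saturated and the 75th percentile signal ranged from 380.2 to 1323. Of 9 epithelial markers 8 were well above background on all 24 arrays and EPCAM on 22, while 0 of 6 fibroblast, 1 of 6 leukocyte (CD68) and 0 of 4 endothelial markers were, with COL3A1 on 0 arrays. The study's methods call the 6 experiments biological replicates, all of 1 clone, so the p-values measure the spread between these experiments.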

How the data were processed

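RNA of 4 treatments in 6 experiments was hybridized to 24 one-colour Agilent arrays. The deposited files hold the intensity of each spot, written by Agilent Feature Extraction 9.5.3.1 per the file headers, as a processed signal from which background and spatial trend had been removed. The authors normalized and tested the data in GeneSpring with a paired t-test; these normalized values were not used here.

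Spots flagged as outliers (359 to 795 per array) were left out, the log2 processed signal was set relative to the 75th percentile of non-control spots, and spots of a probe were averaged. The 18984 of 34127 probes that at least 1 treatment had well above background on each array were fitted with limma 3.58.1 (R 4.3.3) over all arrays with experiment as a replicate block. Counts were made in Python 3.11.15 with pandas 2.3.3 and numpy 2.4.6, and plots with matplotlib 3.10.9. Calls needed over 2-fold and a Benjamini-Hochberg adjusted p under 0.01 over all tested probes, the interaction no fold. Arrays of the same experiment shared a slide in experiments 2 to 6, and their deviations from the treatment means correlated at 0.218 to 0.851 in 35 of 36 pairs and at -0.217 in the other, so the experiment pairs the arrays by design.

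The members, the co-repressor list and the marker lists were chosen with earlier results of these data known. A gene was represented by its kept probe of highest mean level. Named genes were the 6 largest called rises and falls with every array above background and 6 of 6 experiments in 1 direction, the largest called rise and fall of each cluster, the interaction calls, the lowest p in each doxycycline comparison, 8 genes with a known role, and the probes just inside and outside the background threshold. Others are said to be chosen after their values were seen. The fit was tested on simulated data with 18984 probes, where it recovered 93 of 100 changes of 1.3 (log2) and 97 of 100 of 2 in NaB/Ctl, and 56 of 100 interactions of 1. Alternatives were the background correction, scaling, filter, block, test, thresholds, probes per gene, scan and left-out experiments. The sequence of 1 probe is not reported here.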

Additional observations from a re-analysis of the deposited data

Results flagged for a closer look

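Butyrate changes that differed with doxycycline by the interaction test were those of ZNF444 (-0.44), ZNF562 (0.40) and ZNF8 (0.35), on the log2 scale as the change without minus the change with doxycycline. Each had the same sign in 6 of 6 experiments, and none passed when 1 experiment was left out.

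Of 44 sets of 6 changes of the named genes, 4 held 1 experiment far from the others, where chance gives about 1 in 20. ZNF14 changed by 1.60 in DoxyNaB/Doxy in experiment 2, where the other experiments lay between 0.81 and 1.03, and without that experiment its change was 0.94, under the 2-fold threshold. ZNF44 changed by 2.19 in NaB/Ctl in experiment 1, where the others lay between 1.09 and 1.29. ZNF613 changed by 0.60 in DoxyNaB/Doxy in experiment 3, where the others lay between 1.28 and 1.64. ZNF8 changed by -0.45 in DoxyNaB/Doxy in experiment 4, where the others lay between -0.33 and -0.29.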

How the results depend on the processing

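The count of 78 kept probes higher in NaB/Ctl became 22 with normexp, 49 with probes well above background on all 24 arrays, 34 with quantile normalization, 13 with arrays scaled to their median and 27 at over 3-fold, and 75 to 81 when 1 experiment was left out. The 5 lower became 3 in experiments 2 to 4, 0 with normexp, 18 with quantile normalization, 34 with median scaling, 13 at over 1.5-fold, 0 at over 3-fold and 1 with 1 probe per gene (4 to 6 with 1 experiment left out). The 69 higher in DoxyNaB/Doxy became 36 with normexp, 44 with probes above background on all arrays, 32 with quantile normalization, 15 with median scaling and 17 at over 3-fold (63 to 71 with 1 experiment left out). Here the shares of kept and all tested probes were 18.3% and 11.3% with normexp, and 16.2% and 12.6% with quantile normalization. The 3 lower became 6 with the percentile taken over probes, 5 in experiments 5 and 6, 0 with normexp, 16 with quantile normalization, 28 with median scaling, 1 with the methods' t-test after Benjamini-Hochberg adjustment, 16 at over 1.5-fold, 1 at over 3-fold and 1 with 1 probe per gene (3 to 5 with 1 experiment left out, 5 without experiment 2). The 3 interaction calls became 1 with the percentile over probes, 0 in experiments 2 to 4, 0 in experiments 5 and 6, 0 with no filter, 0 without the replicate block, 0 with normexp, 1 with quantile normalization, 0 with median scaling, 5 by the methods' t-test before and 0 after adjustment of its p and 0 to 0 with 1 experiment left out. Without the replicate block 72 probes were higher in NaB/Ctl and 63 in DoxyNaB/Doxy. A gap of 2 Mb gave 8 clusters in place of 16. Both doxycycline comparisons had 0 calls in every setting. Of the kept probes called in NaB/Ctl and DoxyNaB/Doxy, 94.0% and 95.8% were called higher, 65.4% and 66.7% with quantile normalization, and 27.7% and 34.9% with median scaling. Of 44 results for named genes, 19 lost their call and 6 gained one with median scaling, 14 lost it with normexp and 12 with quantile normalization, where 1 gained one. The percentile over probes and the medians relative to all probes were chosen after seeing the data. The cause of these differences was not tested. The share of rises was highest in the dimmest groups of probes, where the signal over background limits the precision.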
